A study of Drosophila melanogaster with 2 samples.

Results

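The mitochondrial ribosomal protein genes of Drosophila melanogaster were taken as all protein-coding genes of the Ensembl annotation whose symbol starts with mRpL or mRpS. The rule found 73 of 13968 protein-coding genes on the chromosome arms. By symbol, 47 were named for the large subunit (mRpL) and 26 for the small subunit (mRpS). Large and small subunit below follow the symbol alone, which was not checked against the place of each protein in the ribosome. The 73 genes were read in chromatin immunoprecipitation sequencing (ChIP-seq) data for the protein of the gene CG8765. The flies were a transgenic line that expresses CG8765 fused to enhanced green fluorescent protein (CG8765-eGFP), and whole embryos aged 0 to 8 h were precipitated with an antibody against GFP. The series holds 1 group of 2 biological replicates with the same genotype, tissue and age, so no condition, untagged strain or other age could be compared. Whole embryos mix all cell types, so a peak cannot be assigned to a cell type. The labels used here do not say which promoter drives the fusion.

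The mitochondrial ribosome translates the few proteins encoded in mitochondrial DNA, which are core subunits of the respiratory chain and of ATP synthase. Its RNAs are transcribed inside the organelle. Its proteins are encoded in the nucleus, translated in the cytosol and imported, so that the organelle depends on nuclear promoters for each of them. Some have counterparts in the bacterial ribosome and others occur only in mitochondria. Many of these genes lie head to head with another gene. At such a divergent promoter the start sites of both genes face away from each other across a short stretch of DNA, and a peak there cannot be assigned to either gene from its position.

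The DNA under the summits of 7 mitochondrial ribosomal protein genes shows what the precipitated regions look like. Each line below holds the summit of the conservative list and 100 bases to either side, from the RefSeq sequence of build dm6 and on the gene's own strand. The first 4 were the strongest peaks whose sequence is shown here and lie at chr2L:13835360-13835560, chr3R:15229434-15229634, chr3L:2373496-2373696 and chr2L:4945428-4945628. The peak of mRpL41 (rank 12) was stronger than those of mRpL23 and mRpL24, but its sequence is not shown. Capitals mark the 6-base string ACAGTG or its reverse complement CACTGT, which is described with the other sequence features.
mRpS23: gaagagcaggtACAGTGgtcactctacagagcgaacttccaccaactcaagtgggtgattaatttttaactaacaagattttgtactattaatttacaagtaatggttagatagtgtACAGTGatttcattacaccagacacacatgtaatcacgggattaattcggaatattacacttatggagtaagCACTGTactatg
mRpS10: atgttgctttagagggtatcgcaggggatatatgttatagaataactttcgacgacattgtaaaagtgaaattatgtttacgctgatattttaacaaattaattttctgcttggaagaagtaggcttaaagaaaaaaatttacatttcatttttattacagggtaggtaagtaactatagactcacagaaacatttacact
mRpL23: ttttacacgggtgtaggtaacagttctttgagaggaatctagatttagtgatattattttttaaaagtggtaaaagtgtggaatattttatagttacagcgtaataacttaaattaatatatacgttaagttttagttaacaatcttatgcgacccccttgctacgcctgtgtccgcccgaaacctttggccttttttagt
mRpL24: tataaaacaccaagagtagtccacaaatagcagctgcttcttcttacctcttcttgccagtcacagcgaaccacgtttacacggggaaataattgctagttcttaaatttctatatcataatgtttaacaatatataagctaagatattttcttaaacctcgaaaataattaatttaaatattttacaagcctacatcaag
The next pair hold the same string nearest to the summit after mRpS23 and lie at chr2L:4850515-4850715 and chr2L:16329151-16329351. They were chosen after their values were seen.
mRpS2: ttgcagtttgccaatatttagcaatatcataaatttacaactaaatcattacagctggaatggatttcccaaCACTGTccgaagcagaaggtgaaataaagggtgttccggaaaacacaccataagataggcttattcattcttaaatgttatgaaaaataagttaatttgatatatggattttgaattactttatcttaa
mRpL4: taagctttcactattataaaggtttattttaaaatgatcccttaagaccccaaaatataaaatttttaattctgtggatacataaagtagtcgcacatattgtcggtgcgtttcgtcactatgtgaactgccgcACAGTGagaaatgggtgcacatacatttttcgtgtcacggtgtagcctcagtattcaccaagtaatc
The last, at chr3R:31252653-31252853, is the only 1 of the 14 summits within 100 bp of the DNA replication-related element TATCGATA, which is in capitals there.
mRpL32: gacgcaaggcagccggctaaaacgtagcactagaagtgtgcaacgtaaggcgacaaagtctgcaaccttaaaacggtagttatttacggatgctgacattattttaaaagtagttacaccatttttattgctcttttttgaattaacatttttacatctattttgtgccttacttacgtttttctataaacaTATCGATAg
Across all 14 summits these windows had a median GC content of 31.6% (25.4 to 56.2%), beside 36.8% at all 1084 conservative summits near a protein-coding start site.

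In the conservative list of the series, 14 of the 73 genes (19.2%) had a summit within 500 bp of an annotated transcription start site (TSS). The background was 10.5% of protein-coding genes, or 1468 of 13968. The conservative list holds 2167 peaks that the authors thresholded by the irreproducible discovery rate (IDR), which scores how well the rank of a peak is repeated between sets of peaks. In the less strict list of the series 17 genes (23.3%) had a summit, against 12.3% of protein-coding genes. In replicate 1's own thresholded list 10 genes (13.7%) had one, against 8.35%. In replicate 2's own list 15 genes (20.5%) had one, against 8.78%. The members' share was above the background in all 4 lists, and the replicates differed by 5 genes. The choice of these genes was made with earlier results of these data known, so the shares are a description with no test.

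**Figure D1:**
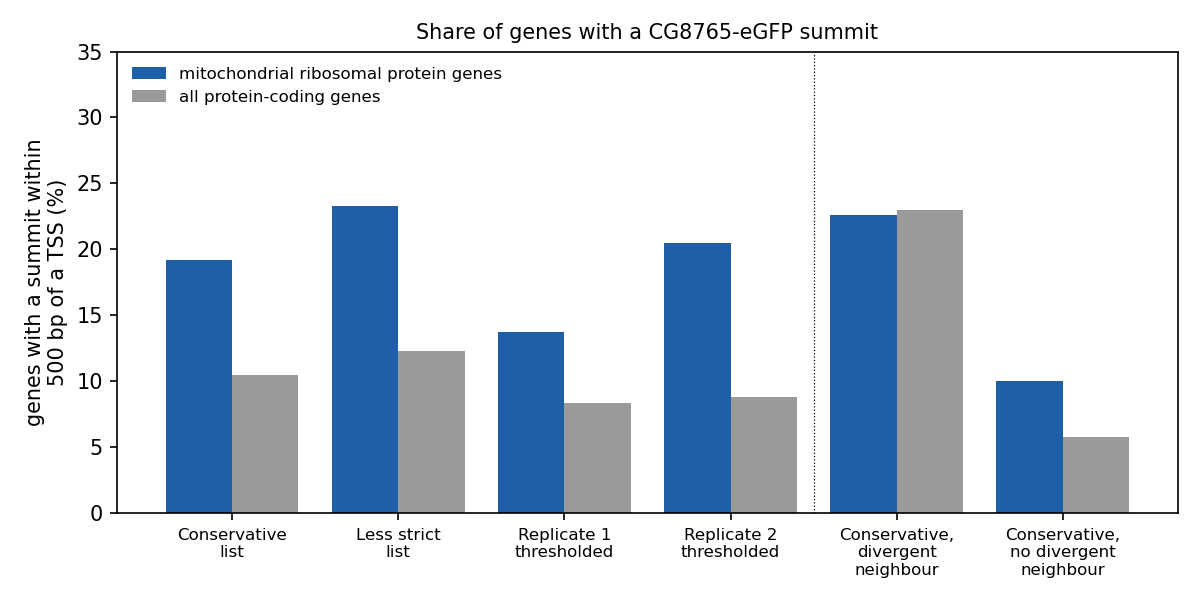
Bars give the percentage of genes with a CG8765-eGFP summit within 500 bp of a TSS, for the mitochondrial ribosomal protein genes (blue) and all protein-coding genes (grey). In the 4 thresholded lists the blue bars run from 13.7 to 23.3% and the grey bars from 8.35 to 12.3%; right of the dotted line, genes with a divergent neighbour stand at 22.6 and 23% and genes without one at 10 and 5.8%.

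Most of these genes were divergent, more than in the genome at large, and divergent genes had peaks more often. Of the 73 genes, 53 (72.6%) had a protein-coding neighbour on the opposite strand with its TSS within 500 bp upstream, against 3815 of 13968 protein-coding genes (27.3%). Of these 53 genes, 12 (22.6%) had a conservative summit, and the background among protein-coding genes with such a neighbour was 23%. Of the 20 genes without a divergent neighbour, 2 (10%) had a summit, and the background without one was 5.8%. The excess over all protein-coding genes was thus not seen among divergent genes in this list. In the less strict list 15 of the 53 (28.3%) had a summit, against 25.4% of divergent protein-coding genes. In replicate 1's thresholded list it was 9 (17%), against 18%, and in replicate 2's 12 (22.6%), against 19%.

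Among the divergent genes, the median distance between the start sites was 260.5 bp (24 to 492) in the 12 genes with a conservative summit and 279 bp (20 to 499) in the 41 without. Of 18 genes spaced under 100 bp, 1 (5.56%) had a summit, namely mRpL23, against 18.7% of protein-coding genes so spaced. Of 35 genes spaced 100 to 500 bp, 11 (31.4%) had one, against 24.3%. The limit of 100 bp was chosen after the values were seen.

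A conservative summit was found at 10 of 47 large subunit genes (21.3%) and at 4 of 26 small subunit genes (15.4%). The order turned in replicate 1's own list, with 6 (12.8%) and 4 (15.4%), and in replicate 2's, with 9 (19.1%) and 6 (23.1%). Divergent neighbours were as frequent in both, at 34 of the large subunit genes (72.3%) and 19 of the small (73.1%). Grouped by the nomenclature of the human proteins, 10 of 46 genes with a bacterial counterpart (21.7%) and 4 of 27 mitochondria-specific genes (14.8%) had a summit, a grouping made after the values were seen. The order of the subunits thus differed between lists, and the classes were counted in the conservative list alone.

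Of the 25 highest of the 2132 peaks on the arms, 4 lay at mitochondrial ribosomal protein genes (mRpS23, mRpS10, mRpL41 and mRpL23). With mRpL24, 5 of the 14 peaks lay in the highest 10% of the list, beside 12.3% of all conservative summits near a protein-coding TSS. The median signal percentile in the list was 80.4 for the 14 and 52.1 for all 1084 such summits. Signal is the authors' value for each peak, of a scaling not given in the sources used here, and was ranked only within a list. The median signal was 190.5 for the 14 and 107.6 for the 1084, and 11 of the 14 lay above the median of all peaks, 104.7. The 14 were more often shared with another protein-coding gene than the 1084, as given below. Signal was not compared among shared summits alone, so a trait of such summits cannot be told apart from one of these genes.

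**Figure D2:**
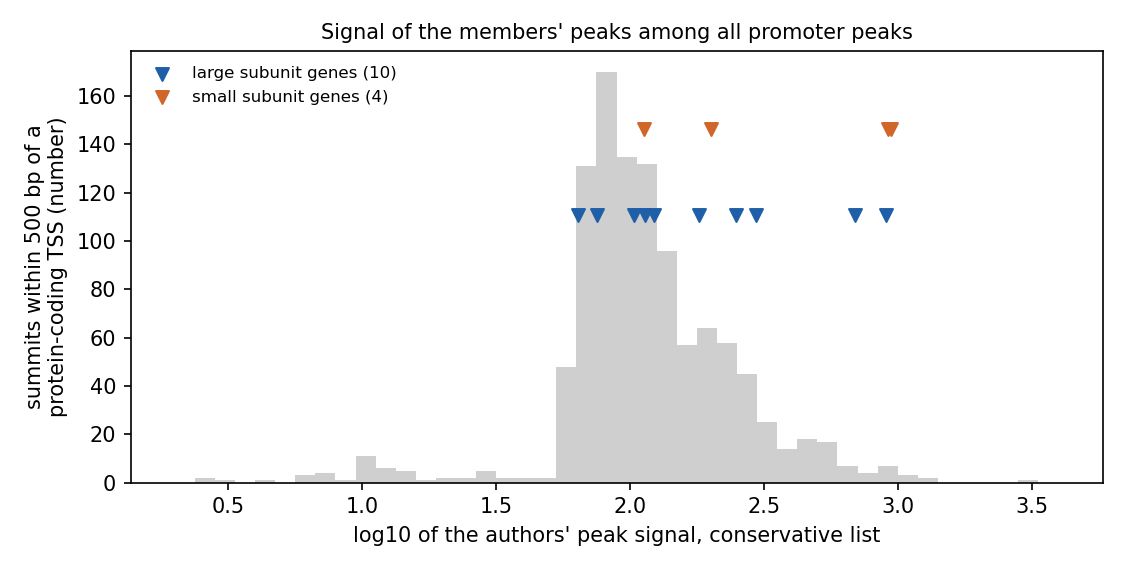
Grey bars count the conservative summits within 500 bp of a protein-coding TSS by the log10 of the authors' peak signal, and triangles mark the peaks of the mitochondrial ribosomal protein genes (their height has no meaning). Of the 14 triangles, 11 stand for signals above 104.7 and 4 stand in the far right of the distribution, from 695.0 to 940.4.

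Among the small subunit genes, mRpS23 encodes a mitochondria-specific protein. Its peak at chr2L:13835332-13835582 had a signal of 940.4 and was number 10 of the conservative list. In the replicates' ranked lists the summit near its TSS had a signal of 420.9 (rank 14) in replicate 1 and 505.4 (rank 15) in replicate 2. It was thus among the highest peaks of both replicates. The summit lay 388 bp upstream of the TSS of mRpS23, the farthest of the 14, and 104 bp upstream of that of CenG1A, which encodes an Arf GTPase-activating protein. Of the members without a summit in the window, mRpL13 had the nearest, at 1435 bp.

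The gene mRpS10 encodes a protein of the head of the small subunit with a bacterial counterpart. Its peak at chr3R:15229395-15229649 had a signal of 916.3 (rank 11). The replicates gave 420.6 (rank 15) and 495.8 (rank 17). The summit stood nearly midway between both start sites, 131 bp upstream of mRpS10 and 126 bp upstream of Art3, an arginine methyltransferase gene.

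The other small subunit peaks were lower. mRpS2, whose protein has a bacterial counterpart, had a signal of 200.5 (rank 372), with 65.7 (rank 810) in replicate 1 and 147.4 (rank 216) in replicate 2. Its summit lay 26 bp upstream of the TSS of Mon1, a gene of endosomal trafficking, and 196 bp upstream of its own. mRpS6, a platform protein in bacteria, had a signal of 113.1 (rank 950), with 51.4 (rank 1190) and 52.5 (rank 1338) in the replicates. Here the own TSS was nearer, at 124 bp, and that of the F-BAR protein gene Cip4 at 324 bp. All 4 small subunit genes were in both replicates' thresholded lists.

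In the large subunit, mRpL23 and mRpL24 encode proteins whose bacterial counterparts sit at the exit of the peptide tunnel. The mRpL23 peak at chr3L:2373489-2373732 had a signal of 695.0 (rank 24), with 343.5 (rank 25) in replicate 1 and 353.7 (rank 38) in replicate 2. It was the only 1 of the 14 genes with a higher percentile in replicate 1. Its summit was also the only one downstream of the gene's nearest TSS, by 82 bp, in an intron of mRpL23 and 95 bp upstream of a further annotated TSS of the gene. The TSS of its neighbour CG9004 was 132 bp away. The mRpL24 peak at chr2L:4945434-4945580 had a signal of 296.7 (rank 162), with 103.0 (rank 383) and 198.8 (rank 120), and lay 51 bp upstream of betaggt-I, the gene of the beta subunit of geranylgeranyl transferase type I.

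The mitochondria-specific large subunit proteins had 3 peaks. mRpL41 had a signal of 904.2 (rank 12), with 352.6 (rank 23) in replicate 1 and 553.0 (rank 11) in replicate 2. Its summit lay 125 bp upstream with no other protein-coding TSS within 500 bp, although the non-coding gene lncRNA:CR44463 has a start there. So the strongest large subunit peak was not at a divergent pair of protein-coding genes at the limit of 500 bp. With divergent neighbours counted up to 1000 bp, all 14 genes with a conservative summit had one, mRpL41 included. mRpL37 had a signal of 180.5 (rank 464), with 73.0 (rank 665) and 107.4 (rank 399), and its summit lay 137 bp upstream of its TSS. mRpL53 had a signal of 103.8 (rank 1082), with 38.9 (rank 1890) and 53.6 (rank 1292), 85 bp from its own TSS and 85 bp from that of AGO1, an Argonaute of the microRNA pathway. The gene CG33155 shares the TSS of mRpL53, and the window at this summit had the highest GC content of the 14, 56.2%.

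The remaining large subunit genes with a peak have bacterial counterparts. mRpL20 had a signal of 247.9 (rank 247), with 70.5 (rank 708) in replicate 1 and 174.5 (rank 148) in replicate 2, nearer to Icmt, an isoprenylcysteine carboxyl methyltransferase gene (100 bp), than to itself (299 bp). mRpL32 had 122.6 (rank 842), with 61.05 (rank 905) and 60.5 (rank 1058), beside qless, which encodes an enzyme of coenzyme Q synthesis. mRpL34 had 113.4 (rank 942), with 38.6 (rank 1915) and 69.8 (rank 818), beside the dystroglycan gene Dg. These summits lay between the start sites of each pair. mRpL4, with no divergent neighbour within 500 bp, had 75.4 (rank 1667), with 27.4 (rank 4054) and 50.2 (rank 1437). mRpL11 had the lowest signal, 64.0 (rank 1930), with 32.5 (rank 2613) and 37.98 (rank 2539), in an exon of HtrA2, the gene of a mitochondrial serine protease.

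The 14 summits were 14 separate peaks of 104 to 324 bp, and 12 of them also lay within 500 bp of another protein-coding gene, against 471 of the 1084 summits (43.5%). The median position was 134 bp upstream of the member's TSS (-134 bp; -388 to 82), and 13 of 14 lay upstream. For all 1084 summits the median was -97 bp from the nearest TSS and 82.8% lay upstream. The measures are unlike, since the member's own TSS was not always the nearest. Of the 12 divergent pairs, 10 had the summit between the closest start sites of the pair, and 11 of the 14 summits were intergenic. At mRpL11 and mRpL23 it lay between start sites of the pair that are farther apart. The member held the nearest protein-coding TSS at 7 of the 14, so counting each summit for the nearest gene alone left 7 genes. The share of all protein-coding genes under that rule was not computed. The background given above counts a summit for every gene within 500 bp, so the 7 cannot be set against it. No further member appeared when the window was widened to 1000 bp.

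**Figure D3:**
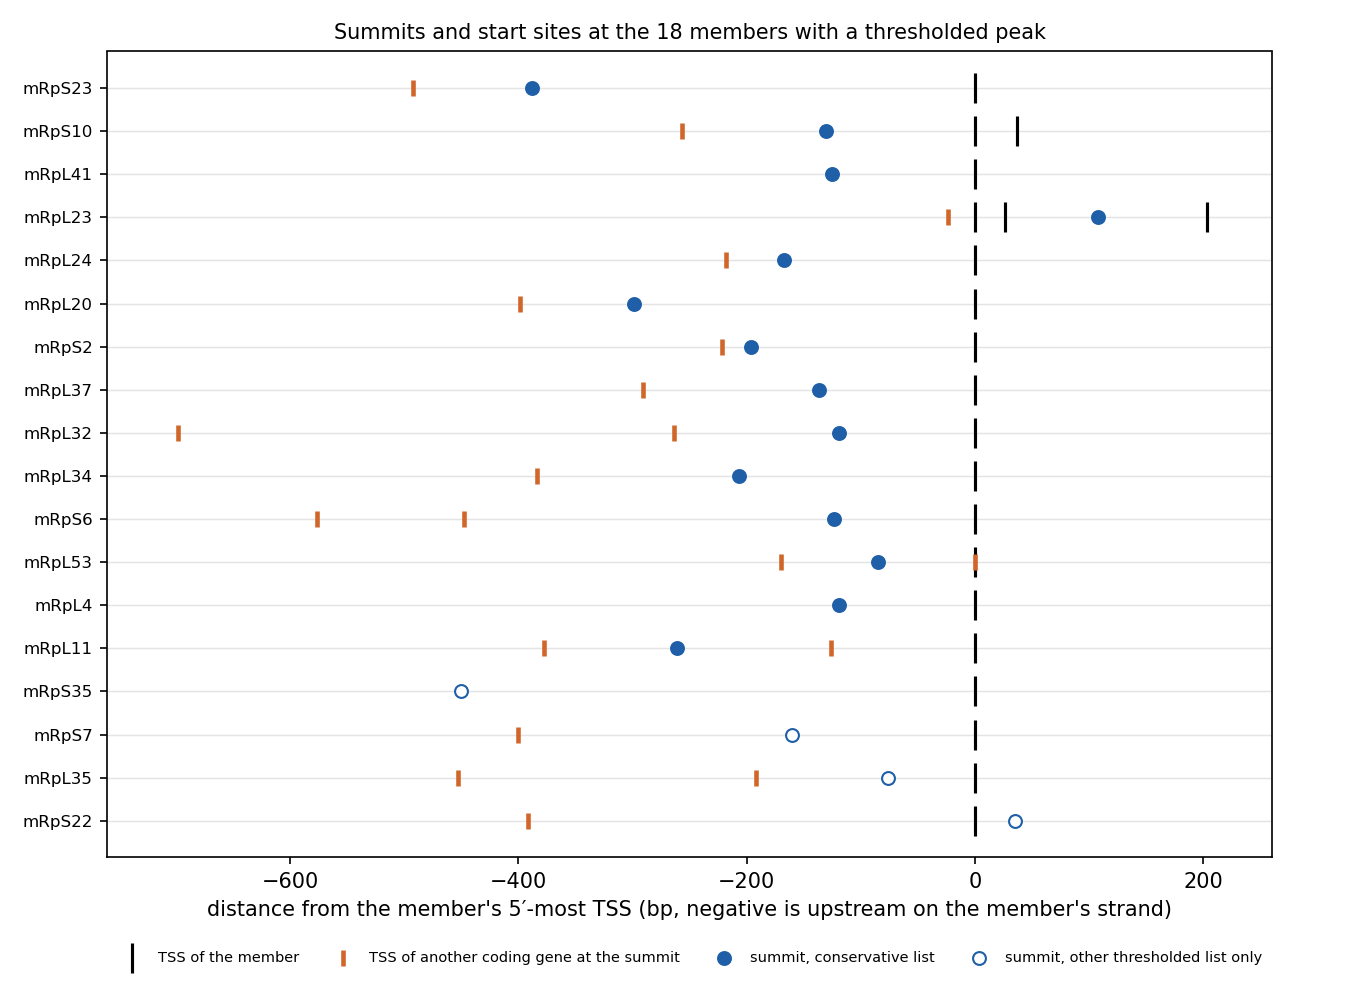
Each row is a gene with a thresholded peak, ordered by signal in the conservative list, with the summit (filled for the conservative list, open for other lists), the gene's own start sites (long black bars) and those of another coding gene near the summit (short orange bars) along the distance in bp from its 5′-most TSS. In 12 rows a filled point lies between a black and an orange bar, at mRpL11 and mRpL23 only through start sites other than the closest of the pair. The summits of mRpL23 (filled) and mRpS22 (open) are downstream of the zero line, which for mRpL23 is a TSS farther upstream than the nearest.

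The replicates gave different support to the weaker genes. Of the 14 genes, 10 were in both replicates' own thresholded lists. mRpL34 and mRpL4 were in replicate 2's alone, and mRpL11 and mRpL53 were in neither. A further 4 genes had a thresholded summit outside the conservative list, which makes 18 in any list and leaves 55 in none. mRpS7, a head protein gene that faces the mitotic kinase gene Cdk1, had a signal of 103.5 (rank 1128) in the less strict list and 64.7 (rank 952) in replicate 2's ranked list. Replicate 1 had no ranked peak there, and its nearest summit was 4162 bp away. Of the replicates' own lists, only those of replicate 2 thus hold this peak. What replicate 1 adds to the signal in the less strict list was not tested. mRpL35, beside the cristae gene Mitofilin, had 65.6 (rank 2276) in the less strict list, with 24.7 (rank 5756) and 46.4 (rank 1676) in the replicates. mRpS22 had 44.4 (rank 2687), with an overlapping peak of 10.6 (rank 59536) in replicate 1 and 35.5 (rank 3077) in replicate 2. mRpS35 was in replicate 2's thresholded list alone, with 34.5 (rank 1621), 450 bp upstream in an exon of the autophagy gene Atg2.

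The replicates' ranked lists also hold peaks far below the threshold. Their length is 108098 peaks for replicate 1 and 127098 for replicate 2. A summit within 500 bp of a TSS was found for 57 of the 73 genes (78.1%) in replicate 1, against 71.8% of protein-coding genes, and for 68 (93.2%) in replicate 2, against 79.2%. In replicate 1 it was 41 of 47 large subunit genes (87.2%) and 16 of 26 small subunit genes (61.5%), while replicate 2 had 44 (93.6%) and 24 (92.3%). The gap between the subunits in replicate 1 was therefore not repeated. A ranked summit was present in both replicates for 55 genes, in replicate 1 alone for mRpL44 and mRpL49, in replicate 2 alone for 13, and in neither for mRpL30, mRpS28 and mRpS30.

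**Figure D4:**
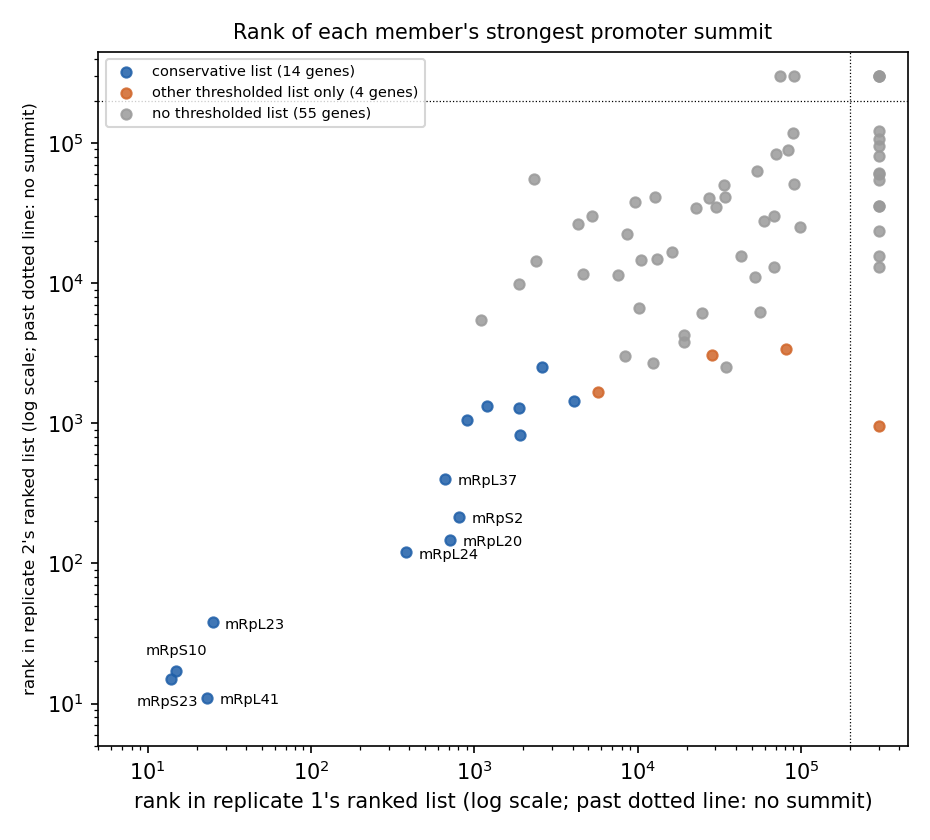
Each point is a mitochondrial ribosomal protein gene at the rank of its strongest summit within 500 bp of a TSS in replicate 1's (x) and replicate 2's (y) ranked list, on log scales where 1 is the highest signal and genes without a summit stand past the dotted lines. Genes of the conservative list (blue) have ranks from 14 to 4054 in replicate 1 and from 11 to 2539 in replicate 2, and genes with no thresholded peak (grey) scatter widely.

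Ranks were alike between replicates at the genes with a peak and much less so at the others. Spearman's rho of the ranks was 0.70 over the 55 genes, 0.94 over the 14 with a conservative summit and 0.32 over the 41 without. The 14 were chosen by the authors' threshold on repeated rank, so their rho is a description of that choice. The summits of the replicates were a median of 14 bp apart (2 to 111) at the 14 genes and 119 bp apart (0 to 935) at the 41. Among the 55, the replicates' summits were within 100 bp of each other at 32, of which 13 had a conservative summit.

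In the ranked lists, the members without a conservative summit lay near the median of all protein-coding genes with a ranked summit. Their median percentile was 76.5 in replicate 1 (43 genes) and 80.6 in replicate 2 (54 genes), against 76.9 and 78.5 for all protein-coding genes with a ranked summit. These protein-coding genes include those with a conservative summit, and their median without these was not computed. With the 14 likewise included, the members' medians were 88.3 and 88.5. The genes with the highest ranks and no thresholded peak differed between replicates. In replicate 1 they were mRpL47 (signal 53.6, rank 1107; rank 5490 in replicate 2), mRpL42 (39.1, rank 1875; rank 9825) and mRpS16 (34.8, rank 2326; rank 54927). In replicate 2 they were mRpL22 (37.99, rank 2534; rank 35013 in replicate 1), mRpS24 (37.2, rank 2674; rank 12510) and mRpL21 (35.7, rank 3021; rank 8377). None of these 6 ranked as high in the other replicate.

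The peaks were spread over the large arms of chromosomes 2 and 3. A conservative summit was found at 4 of 12 members on 2L, where 9.75% of protein-coding genes had one, and at 3 of 12 on 2R, against 10.1%. It was found at 3 of 17 on 3L, against 11.4%, and at 4 of 21 on 3R, against 11.8%. On X it was 0 of 11 members, and none of these was in the less strict list either, while 9.24% of the protein-coding genes on X had a conservative summit. With 11 members, 0 is a small number to set against this share, and no test was made. Of the 11 members on X, 7 had a divergent neighbour, and 5 in replicate 1 and 8 in replicate 2 had a ranked summit.

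Of the 7 promoter motifs searched, CGATA was the most frequent at the members' summits, and 3 motifs were found at none of them. CGATA is the shortest of the 7 and was also the most frequent at all summits and in all promoters. Each motif was sought on both strands within 100 bases of the 14 summits, within 100 bases of all 1084 summits, and in the 200 bases upstream of all protein-coding genes. The DNA replication-related element TATCGATA, the site of the factor DREF, was found at 1 of 14 summits (7.14%), beside 7.93% of all summits and 7.37% of promoters. CGATA, a string bound by the insulator protein BEAF-32 and also contained in TATCGATA, was found at 7 of 14 (50%), beside 38.6% of all summits and 38.4% of promoters. In the 200 bases upstream, it was found at 5 of the 14 members with a summit and at 33 of the 59 without (55.9%). TATAAA was found at 5 of 14 (35.7%), beside 34.2% of all summits and 37.0% of promoters. The homeodomain string TAATTA was found at 1 of 14, beside 16.8% of all summits and 15.4% of promoters. GGTCACAC (core promoter motif 1), CAGCNCTA or CAGCNCTG (motif 7) and the E-box CACGTG were found at 0 of 14, beside 3.41, 11.8 and 2.68% of all summits and 3.74, 7.12 and 2.23% of promoters. With 14 summits, 0 is a small number to set against these shares, and no test was made.

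The string ACAGTG came from a search over all 6-base strings that was added after the data had been seen. It had the largest excess of those compared at the other 1070 conservative summits near protein-coding genes (20.3%) over the promoters of the other 13895 genes (9.09%), so the members took no part in its choice. Among the members it was found at 5 of 14 summits (35.7%), which were mRpS23 with 3 copies and mRpS2, mRpL4, mRpL20 and mRpS6 with 1 each. The nearest copy lay 19 bp from the summit at mRpS23, 26 bp at mRpS2, 36 bp at mRpL4, 76 bp at mRpL20 and 81 bp at mRpS6. In the upstream promoter windows, not summit windows, of the 59 members without a summit it was found at 5 (8.47%). At the other summits it was found at 34 of 128 (26.6%) in the highest 10% of the list by signal and at 183 of 942 (19.4%) below. Strong peaks of mRpS10, mRpL23 and mRpL24 lacked it, as the lines without capitals show, and 5 of 14 is a small number to set against these shares.

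Other nuclear genes of mitochondrial gene expression and of protein import had few conservative peaks. The proteins bonsai and tko, which belong to the mitochondrial ribosome under other symbols, the 9 translation factors and the 19 aminoacyl-tRNA synthetase and amidotransferase genes had 0 conservative summits. The 15 genes of protein import also had 0. Of 15 genes that maintain mitochondrial DNA and RNA, 3 (20%) had one. PNPase, the gene of mitochondrial polynucleotide phosphorylase, had a signal of 605.7 (rank 28), with 241.8 (rank 59) in replicate 1 and 370.8 (rank 33) in replicate 2. mtSSB, the gene of the single-strand binding protein of mitochondrial DNA, had 137.3 (rank 710), and mTerf5, of a transcription termination factor family, had 73.3 (rank 1716). Over all 60 genes of these lists 3 (5%) had a conservative summit, below the background of 10.5% given above. In the less strict list it was 5 of 60, against 12.3% of protein-coding genes. In replicate 1's own list it was 5, close to the background of 8.35%, and in replicate 2's 3, against 8.78%.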

How the data were processed

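Per the labels, chromatin of 2 biological replicates was sonicated to fragments of 200 to 800 bp, and the deposited peak lists are on build dm6. The deposited text names both replicates and a control behind the series lists. Which aligner and peak caller were used is a detail not given in the sources used here. Each peak's signal is the authors' value, ranked only within a list. The deposited score, which rises to 1000 with better IDR, was at least 830 in every thresholded list. Read depth is unknown, so no interval on a signal is given. P-values are not printed, since 1 group allows no test between samples, and the spread shown is between 2 samples. No label maps 20 value columns of the series' ranked lists to a sample, and these were not used.

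Genes and start sites came from Ensembl annotation 115 of BDGP6.54. No interval ended past its arm, and 73 of 73 annotated start codons of the members read ATG in the reference. Peaks on unplaced scaffolds were left out. A gene was called where a summit lay within 500 bp of a TSS. Ranked lists gave each gene its strongest such summit. The scripts ran in Python 3.11.15 with NumPy 2.4.6, pandas 2.3.3, SciPy 1.17.1 and matplotlib 3.10.9. Only the steps for summit positions, divergent neighbours and motifs were tested on simulated data.

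The members, lists and settings were chosen with earlier results of these data known. The genes named were all members with a thresholded summit, the genes that share it, the 3 highest ranked members without one in each replicate, the members at the edge of the window, and genes of the pathway lists with a conservative summit. The alternatives were other lists, single replicates, the upper part of the list by signal, other windows, and counting the nearest gene alone.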

Additional observations from a re-analysis of the deposited data

How the results depend on the processing

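Of 50 alternative values, 42 kept within the limits set for the main value, 8 moved and 0 reversed. Counts were held to a factor of 1.5, so a fall from 14 to 10 members was kept. That 0 reversed says little, since most of the values are counts, which cannot change sign. The order of the subunits, which turned in both replicates' own lists, was not among the 50. The count of 14 members became 7 when a summit counted for the nearest gene alone, a rule for which no background was computed. It was 10 to 15 in single replicates' lists. The large subunit count of 10 was 6 to 9 in single replicates. The 12 members with a divergent neighbour and a summit became 14 when neighbours up to 1000 bp counted. The share of all protein-coding genes at that limit was not computed. The median signal percentile of 80.4 was 69.7 in the less strict list, 76.9 among peaks at or above the median signal, and 73.0 to 77.4 in single replicates. The median position of -134 bp was -156 to -131.5 bp in single replicates. The DNA replication-related element was found at 1 summit within 100 bp, at 0 within 50 bp and at 3 within 200 bp (mRpL32, mRpL4 and mRpS23). The cause of these moves was not tested, except that the last follows from the width of the window. No paired analysis was possible because the series holds 1 group. Depth is unknown, so a missing peak at the other genes does not show that binding was absent.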
